A study of Mus musculus with 6 samples.

Results

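The 42 genes described here build and supply the primary cilium: 11 encode subunits of intraflagellar transport complex B (IFT-B), 3 subunits of complex A (IFT-A), 4 the motors that pull these complexes, 10 the BBSome and its helpers, 12 proteins of the transition zone, and 2 (Arl13b and Ofd1) a GTPase of the ciliary membrane and a centriole protein. They were taken by gene symbol from a list, and all 42 were found among the 24389 genes with a value in each library. Dorsal pancreata of mouse embryos at E13.5 were compared between 3 libraries of Bicc1 knockout embryos (KO) and 3 of wild-type embryos (WT), both on a mixed background of C57BL/6 and ICR. Bicc1 encodes an RNA-binding protein, and the design asks what its deletion does to the pancreatic mRNA profile. The labels give neither the allele nor whether a library came from 1 embryo or from a pool, so p-values measure the spread between these libraries, which may be technical. Values are the authors' non-negative signal per gene, whose unit is not stated in the sources used here and whose floor is 0.01. Depth is unknown, and the values of different genes may not share 1 scale, so levels were compared between libraries and not between genes.

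The primary cilium is a single, non-motile antenna on most cells, and in the embryonic pancreas it is found on duct and endocrine cells and on mesenchymal cells. Proteins are not made inside it: IFT-B with kinesin-2 carries cargo outward, IFT-A with dynein-2 carries it back, the BBSome moves membrane receptors out of the cilium, and the transition zone at its base controls what enters. Loss of many of these genes in mice or humans gives ciliopathies, which can bring cysts of the kidney and of the pancreatic duct, and loss of Bicc1 is likewise known for cystic kidneys.

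The labels and the tissue were checked first. Bicc1 was 3.96, 4.91 and 4.48 in KO 1 to KO 3 against 19.7, 19.5 and 18.2 in WT 1 to WT 3, a log2 change of -1.89 (SE 0.087, limma adjusted p 0.000674), so each KO library matched its label. The pancreatic factor gene Pdx1 lay between 9.57 and 13.49 over the 6 libraries, and the tip cell gene Cpa1 between 193 and 304. Genes of motile cilia served as a marker of multiciliated cells: 12 of 13 listed genes were found, and each stayed between 0.010 and 1.03 in each library. Foxj1, the master factor of motile cilia, was at most 0.41. Since the values of different genes may not share 1 scale, these values cannot show whether multiciliated cells were absent. The first principal component of all tested genes (57.3% of the variance) set KO 1, KO 2 and WT 3 apart from KO 3, WT 1 and WT 2, so differences are also given within each side.

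RFX transcription factors are known to switch on many cilium genes through a motif called the X-box, so the promoters of the 42 genes were searched for it. RefSeq windows of build GRCm38.p6, from 250 bases before to 50 bases after a start site, were at hand for 38 of the 42 genes; Ift80, Ift81, Ift122 and Tmem67 were not searched. The X-box was taken as its 2 consensus half-sites of 6 bases with 1 to 3 bases between them, on either strand. It was found in the windows of 6 of these 38 genes (15.8%), against 445 of 27025 genes in the whole table (1.65%). The 6 genes were Ift57, the BBSome gene Bbs1, and the transition-zone genes Tctn1, Tctn2, Tctn3 and B9d2. The X-box was also found in 4 of 43 other cilium genes with a window (9.3%) and in 4 of 11 motile cilium genes (36.4%). A palindromic motif close to the X-box (GTTNCC, 2 bases of any kind, GGNAAC), which falls on the X-box in Tctn1, was found in 3 of the 38 genes (7.89%: Bbs7, Mks1 and Tctn1) and in 143 of all 27025 (0.529%). The sequences that hold an X-box are shown because they mark which of the 38 genes searched carry it near their start. They are written 5′ to 3′ on the strand of the gene with the X-box in capitals, at chr16:49699151-49699276 (plus strand, Ift57), chr5:124598631-124598730 (plus strand, Tctn2), chr19:40612329-40612428 (minus strand, Tctn3), chr5:122264411-122264440 (minus strand, Tctn1), chr7:25680788-25680817 (plus strand, B9d2) and chr19:4906605-4906634 (minus strand, Bbs1) of GRCm38.p6.
Ift57: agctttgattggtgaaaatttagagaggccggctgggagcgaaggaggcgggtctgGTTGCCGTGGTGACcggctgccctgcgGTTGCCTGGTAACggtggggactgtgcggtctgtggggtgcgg
Tctn2: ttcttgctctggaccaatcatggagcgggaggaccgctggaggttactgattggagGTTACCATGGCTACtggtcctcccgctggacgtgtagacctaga
Tctn3: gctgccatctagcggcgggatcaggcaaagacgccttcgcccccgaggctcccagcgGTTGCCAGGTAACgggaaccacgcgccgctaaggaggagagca
Tctn1: gcgctaggctgtgactGTTGCCCGGGCAAC
B9d2: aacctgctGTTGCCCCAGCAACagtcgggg
Bbs1: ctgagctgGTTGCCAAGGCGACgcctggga

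**Figure D1:**
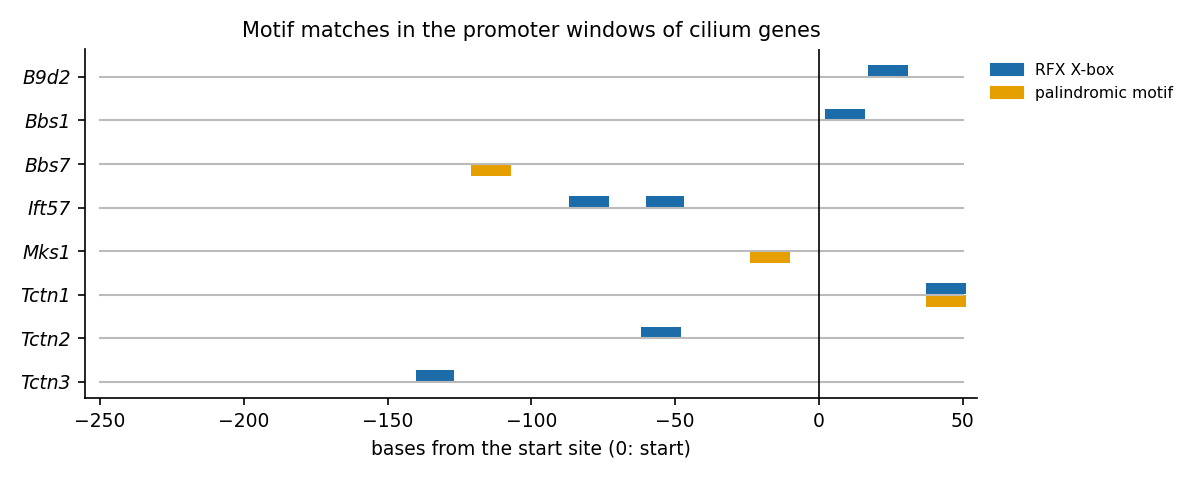
Motif matches in the RefSeq promoter windows of the 8 cilium genes with at least 1 match; the x axis is the distance from the start site in bases, blue bars are RFX X-boxes and orange bars the palindromic motif. Ift57 holds 2 X-boxes before its start, and in B9d2, Bbs1 and Tctn1 the X-box lies after it.

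None of the cilium genes was called between KO and WT. Of the 42, 39 reached an average of 1 across the libraries and were tested with limma on log2(value + 1). Of these, 0 passed an adjusted p of 0.05 (Benjamini-Hochberg over all 13911 genes tested, of which 0.0144% passed), and 1, Ift81, had an unadjusted p under 0.05 (2.56% of the 39, against 10.3% of all genes tested, or 4.36% for lower values in KO). The KO average exceeded the WT average in 19 genes and was under it in 20 (51.3%, against 46.5% of all genes tested). Their log2 changes had a median of -0.0029, against 0.014 for all genes tested. The 95% intervals of the log2 change reached down to -0.41 (Cep290) and up to 0.60 (Tctn1 and B9d2), and 35 of the 39 lay wholly between -0.5 and 0.5. The 4 that did not were Ift22, Tctn1, B9d1 and B9d2, each with an upper bound past 0.5. These bounds hold on the log2(value + 1) scale, which understates changes of genes with low values. With a pseudocount of 0.1 the log2 change of Tctn1 went from 0.29 to 0.44 and that of Tmem67 from -0.16 to -0.28. The intervals therefore do not bound the change of the values themselves.

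**Figure D2:**
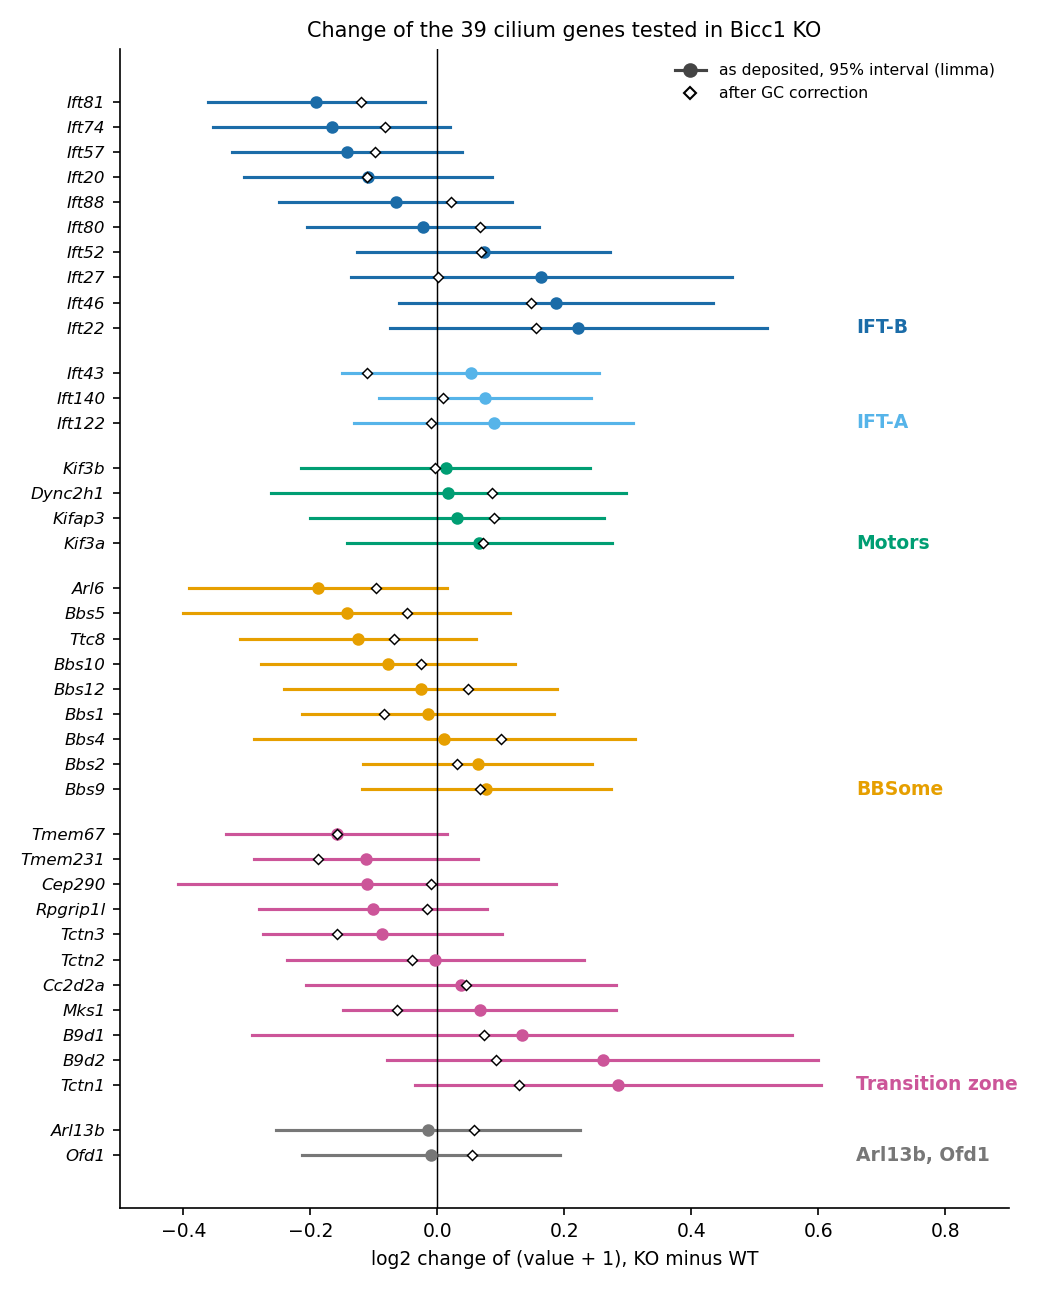
log2 change of (value + 1), KO minus WT, for the 39 cilium genes tested, ordered within each subgroup; filled points with 95% intervals are limma estimates on the deposited values, and open diamonds are estimates after correction for GC content. Only the interval of Ift81 leaves out 0, and 24 of the 39 estimates move closer to 0 after the correction.

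In 5 of the 39 genes the highest KO library was under the lowest WT library (12.8%, against 8.77% of all genes tested), and in 0 the reverse held (7.67% of all genes, so that 16.4% were apart in either direction). The 5 were the IFT-B genes Ift57 and Ift81, the BBSome helper Arl6 and the transition-zone genes Tmem67 and Rpgrip1l. With a library left out, groups of 3 and 2 are apart more often in any gene, and the shares of all genes tested rose as well. Without WT 3, 10 of the 39 were apart below (25.6%, against 20.9% of all genes) and 10 above (25.6%, against 23.8%). Without KO 3 it was 8 below (20.5%, against 16.4%) and 1 above (2.56%, against 16.7%), and without KO 2 it was 6 below (15.4%, against 14.7%) and 3 above (7.69%, against 11.8%). With libraries scaled to equal totals it was 4 below (10.3%, against 6.62%) and 2 above (5.13%, against 7.68%). Summed markers of other cells also separated the groups. The 5 endothelial markers summed to between 84.6 and 106 in KO and between 73.1 and 75.6 in WT, with 5 of 5 higher on average and 3 of 5 not overlapping. The 4 leukocyte markers summed to between 15.6 and 17.7 in KO and between 11.8 and 14.6 in WT, with all 3 tested markers higher on average, and the 3 spleen and stomach markers to between 6.27 and 12.5 and between 4.32 and 6.19. Of the latter 3, only Barx1 was apart (2.90 to 5.04 in KO, 1.18 to 2.70 in WT). Tlx1 overlapped, with 8.71 in KO 3, and so did Sox2 (0.721 to 1.01 in KO, 0.779 to 1.2 in WT). None of these markers was at the floor in any library. The sums of the 9 markers of pancreatic epithelium overlapped, at 421 to 608 in KO and 464 to 546 in WT, with 2 of 9 higher and 7 lower on average and 0 apart. The sums of the 7 endocrine markers overlapped too, at 215 to 358 and 256 to 359, with 5 of 7 lower on average. Among these 7, the endocrine progenitor factor genes Neurog3 (33.99 to 50.9 in KO, 55.4 to 66.4 in WT) and Insm1 (7.49 to 11.3 and 11.9 to 14.4) were apart below. The sums of mesenchyme (529 to 574 and 521 to 552), erythroid (1065 to 1818 and 869 to 1588), neuron and glia (8.81 to 14 and 11.0 to 12.1) and mesothelium markers (18.1 to 34.8 and 22.7 to 24.8) overlapped too. Of the 6 mesenchyme markers, 3 were higher on average. Pdgfrb (28.8 to 32.1 in KO, 23.0 to 27.3 in WT) and Nkx3-2 (2.04 to 2.58 and 0.656 to 1.47) were apart above. The part of such markers in the values of the cilium genes was not tested, and in bulk tissue fewer cells of a type and less RNA per cell cannot be told apart.

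IFT-B is the larger train, and its core holds the dimer of Ift74 and Ift81, which is known to bind tubulin as cargo. Ift81 was 7.34, 7.14 and 7.95 in KO 1 to KO 3 against 8.95, 8.41 and 8.64 in WT 1 to WT 3. All KO libraries were below all WT libraries, with a log2 change of -0.19 (SE 0.073, unadjusted p 0.033, adjusted p 0.469 in limma) that did not pass. Its unadjusted p stayed under 0.05 without KO 3 and was above it when any other single library was left out, and after GC correction. Its partner Ift74 was 10.9, 10.7 and 11.6 in KO and 12.8, 13.4 and 11.5 in WT. Here WT 3 lay just under KO 3 while the other 2 WT libraries lay above all KO libraries, and the log2 change was -0.17 (SE 0.080, limma adjusted p 0.473). Ift57, a subunit of the outer part of the train and the one with 2 X-boxes, was 3.48, 3.75 and 3.62 in KO against 4.31, 4.20 and 3.79 in WT. Its groups did not overlap, though KO 2 and WT 3 were close, and its log2 change was -0.14 (SE 0.078, limma adjusted p 0.481).

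Not all of IFT-B pointed this way. Of its 10 genes tested, the KO average was the lower one in 6 and the higher one in 4, and the median log2 change was -0.044, and 0.011 after GC correction. Without 1 library it ran from -0.066 (without WT 3) to -0.015 (without WT 1). The highest were Ift22, a small GTPase of the core, at 6.62, 7.54 and 5.89 in KO and 5.45, 4.75 and 6.63 in WT, and Ift46, another core subunit, at 5.89, 5.23 and 5.50 against 5.02, 3.98 and 5.31. In both, WT 3 lay among the KO libraries, and the log2 changes of 0.22 and 0.19 did not pass (limma adjusted p 0.486 and 0.485). Ift27, a GTPase that links the train to the BBSome, also had its highest values in KO 2 (3.01), WT 3 (2.69) and KO 1 (2.66), and was at 2.16, 2.14 and 1.85 in KO 3, WT 1 and WT 2. Ift88, a core subunit without which cilia are known to be short or absent, was 2.86, 2.71 and 2.74 in KO and 3.22, 2.80 and 2.83 in WT. Its groups overlapped only through KO 1, with a log2 change of -0.066 (95% interval -0.25 to 0.12). Ift20, the subunit that also sits at the Golgi, was 12.2, 11.0 and 10.3 against 11.9, 11.6 and 12.8, while Ift52, of the core, and Ift80, of the outer part, had log2 changes of 0.073 and -0.023. Ift172 was under the filter, with values of 0.921, 1.05 and 0.947 in KO and 0.692, 0.772 and 0.926 in WT.

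**Figure D3:**
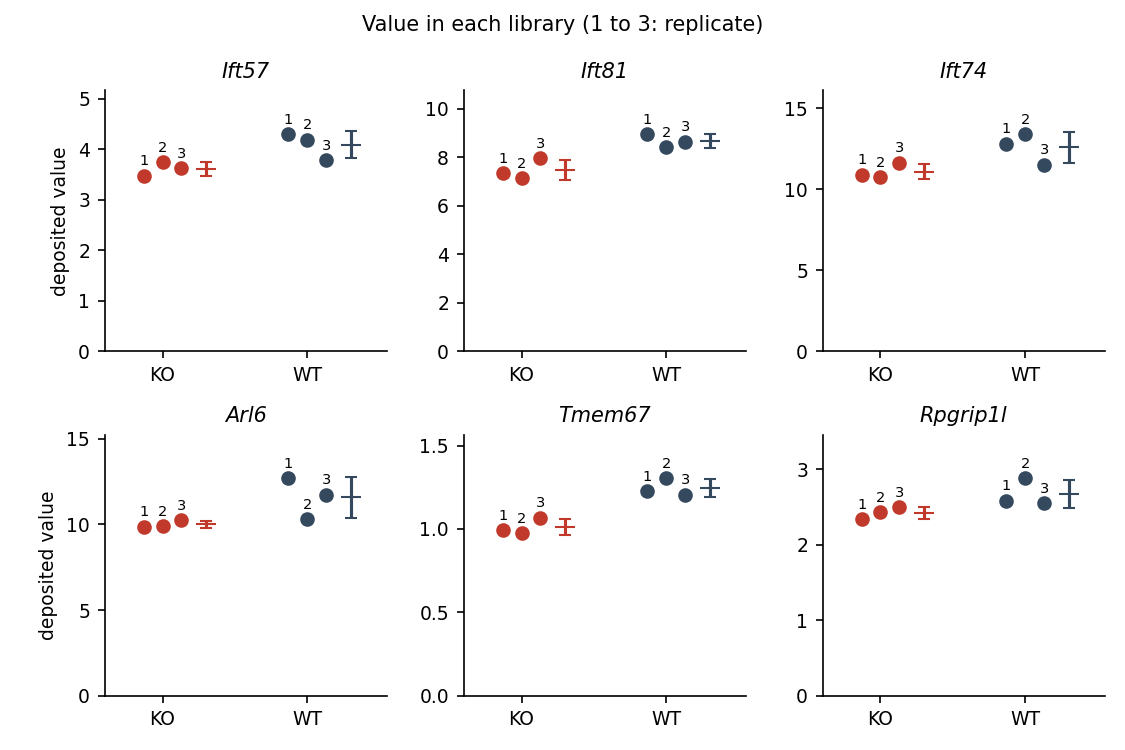
Deposited value in each library (numbers are replicates) with mean and SD beside it, for the 5 cilium genes whose groups do not overlap and for Ift74, the partner of Ift81; axes start at 0. The KO points lie below the WT points in each panel except that of Ift74, where WT 3 (11.5) is under KO 3 (11.6).

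The genes of the return train and of the motors were close to even. All 3 IFT-A genes averaged slightly more in KO, with log2 changes between 0.052 and 0.089. Ift140, an IFT-A core subunit, was 5.23, 4.90 and 5.01 in KO and 4.56, 4.75 and 4.90 in WT, with KO 2 just under WT 3. Ift122, another core subunit, was 2.57, 2.81 and 2.32 against 2.28, 2.14 and 2.65, a log2 change of 0.089 that became -0.0094 after correction for GC content. Ift43 was 6.17, 5.71 and 5.29 against 5.44, 5.08 and 5.92, with a log2 change that went from 0.052 to -0.11. All 4 motor genes likewise had log2 changes between 0.013 and 0.066. Kif3a, a motor subunit of kinesin-2 whose loss in the pancreas is known to give cysts, was 11.7, 11.6 and 13.2 in KO and 11.9, 12.4 and 10.5 in WT. Kifap3, the adaptor of that motor, was 29.0, 24.3 and 30.9 against 26.6, 29.1 and 26.2, and its log2 change of 0.031 was -0.039 without KO 3. Dync2h1, the heavy chain of dynein-2, was 1.15, 1.39 and 1.35 against 1.07, 1.69 and 1.10. For the 7 genes of both groups the 95% intervals lay between -0.26 and 0.31 on the log2 scale.

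The BBSome genes had no member past the test, and 6 of the 9 tested averaged less in KO. Their median log2 change was -0.026. It was -0.021 without KO 1, -0.019 without KO 2, -0.057 without KO 3, -0.062 without WT 1, -0.060 without WT 2 and -0.087 without WT 3. Arl6, the small GTPase that recruits the BBSome to membranes, was 9.86, 9.91 and 10.2 in KO 1 to KO 3 against 12.7, 10.3 and 11.7 in WT 1 to WT 3. All KO values were below all WT values, with KO 3 and WT 2 nearly equal, and the log2 change was -0.19 (SE 0.087, limma adjusted p 0.469). Ttc8, a BBSome subunit, was 6.37, 6.29 and 7.15 against 7.39, 7.57 and 6.89, with KO 3 above WT 3 and a log2 change of -0.13 (limma adjusted p 0.511). Bbs5, a subunit that binds membrane lipids, was 0.846, 1.13 and 1.19 in KO and 1.52, 1.24 and 1.05 in WT, which overlapped. Bbs2 and Bbs9, both subunits of the complex, had log2 changes of 0.064 and 0.077, and Bbs1, with its X-box, of -0.015. Bbs4 was 2.25, 2.52 and 2.82 against 2.89, 2.78 and 1.92, its lowest value being WT 3. Bbs10 and Bbs12, relatives of chaperonins that help to assemble the complex, had log2 changes of -0.078 and -0.026. Bbs7 was under the filter, at 1.0, 0.847 and 1.10 in KO and 1.08, 0.770 and 0.964 in WT.

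Among the transition-zone genes, 6 of 11 tested averaged less and 5 more in KO, and they spanned the widest range of any subgroup, from a log2 change of -0.16 (Tmem67) to 0.29 (Tctn1). Tmem67 encodes meckelin, a membrane receptor of the zone whose mutation causes Meckel syndrome. It was 0.993, 0.974 and 1.07 in KO and 1.23, 1.30 and 1.20 in WT, so all KO values were lower, at 1.01 ± 0.049 against 1.25 ± 0.052 (SD, n = 3 each). The log2 change was -0.16 (SE 0.074, limma adjusted p 0.471), and on the log2(value + 1) scale a change at so low a level is understated. Within the sides it was -0.15 (KO 1 and KO 2 against WT 3) and -0.13 (KO 3 against WT 1 and WT 2), and after GC correction -0.16. Both side values had to be negative, since the groups did not overlap. Rpgrip1l, a scaffold of the zone, was 2.34, 2.43 and 2.49 in KO and 2.58, 2.88 and 2.55 in WT, all KO values lower, with a log2 change of -0.10 that was -0.017 after GC correction. Tmem231, a membrane protein of the same complex, was 5.76, 6.54 and 6.15 against 6.89, 6.79 and 6.48, where KO 2 was above WT 3.

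The 3 tectonic genes, whose products are partners in the zone and which each hold an X-box, had differences of unlike sign and size. Tctn1 was 1.59, 2.43 and 1.63 in KO and 1.26, 1.15 and 1.66 in WT, with KO 2 far above the rest, and its log2 change of 0.29 (SE 0.14, limma adjusted p 0.473) did not pass. Exons of Hvcn1 on the opposite strand cover 19.0% of its exonic sequence in the GENCODE annotation, and since the kit keeps no strand, reads of Hvcn1 may be part of its value. Such overlap touched 9 of the 42 genes, and after Tctn1 it was widest in Ift57 (7.9%) and Cep290 (7.6%). Tctn2 and Tctn3 had log2 changes of -0.0029 and -0.087. The X-box gene B9d2, of the B9 pair that anchors the complex, was 1.42, 1.45 and 1.17 in KO and 0.760, 0.730 and 1.45 in WT. WT 3 had the highest value of all, and the log2 change of 0.26 (SE 0.15, limma adjusted p 0.484) was 0.31 within KO 3, WT 1 and WT 2 and -0.011 within KO 1, KO 2 and WT 3. Its partner B9d1 was 6.04, 6.75 and 4.62 against 4.47, 4.33 and 6.96, again with KO 1, KO 2 and WT 3 high. Cep290, a gene often mutated in Joubert syndrome and related ciliopathies, was 1.31, 1.80 and 1.52 against 1.77, 2.14 and 1.35. Mks1 and Cc2d2a had log2 changes of 0.067 and 0.037. Nphp4 was under the filter, at 0.311, 0.597 and 0.282 in KO and 0.273, 0.263 and 0.355 in WT.

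The last pair also showed no difference beyond the spread. Arl13b, a GTPase that marks the ciliary membrane, was 3.60, 3.47 and 4.32 in KO and 4.10, 4.05 and 3.38 in WT, with a log2 change of -0.015 (95% interval -0.25 to 0.22). Ofd1, an X-linked gene for a protein of the distal centriole, was 1.77, 1.71 and 2.03 against 1.92, 1.99 and 1.67, with a log2 change of -0.0098. In both, KO 3, WT 1 and WT 2 were the highest libraries.

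The order of the libraries in these genes went with the GC content of their transcripts. The 39 genes tested ran from 38.7% (Cep290) to 56% GC (B9d2). Across them, Spearman's rho between GC content and the deviation of a library from the 6-library mean was positive for KO 1 (0.54), KO 2 (0.60) and WT 3 (0.50) and negative for KO 3 (-0.23), WT 1 (-0.52) and WT 2 (-0.66). Over all genes tested the values were 0.50, 0.62 and 0.41 and -0.19, -0.56 and -0.66, close to those of the cilium genes. These are descriptions across genes, which share a library and are not independent. Of the 20 cilium genes with a GC content up to their median of 47.9%, 15 (75%) averaged less in KO, against 74.3% of all genes tested with such a GC content. Of the 19 above it, 5 (26.3%) did, against 26.1%. The median log2 change of the AT-richer 20 was -0.072 and of the GC-richer 19 was 0.073, and after GC correction the medians were 0.0057 and 0.0010. The trend with GC content was in part shared with the groups. Spearman's rho between GC content and the log2 change was 0.65 in the 39 genes and 0.62 over all genes tested. The correction held no term for the group, so it also removes any KO difference that goes with GC content. An effect of the knockout and a technical one cannot be told apart in what it removed.

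**Figure D4:**
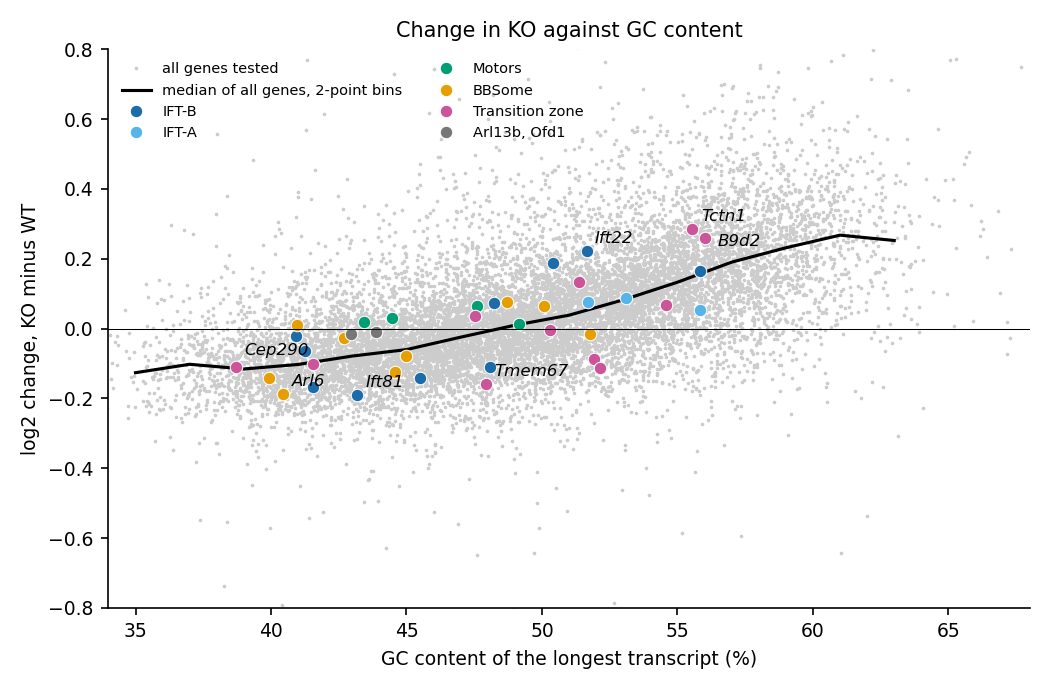
log2 change (KO minus WT) against the GC content of the longest transcript for all genes tested (grey), with their median in 2-point bins (line) and the cilium genes coloured by subgroup; 76 of 13385 genes lie outside the axes. The cilium genes scatter about the line of all genes, from Cep290 and Arl6 below 0 on the left to Tctn1 and B9d2 above 0 on the right. Some lie off it, such as Tmem67, Tmem231 and Tctn3 below the line.

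**Figure D5:**
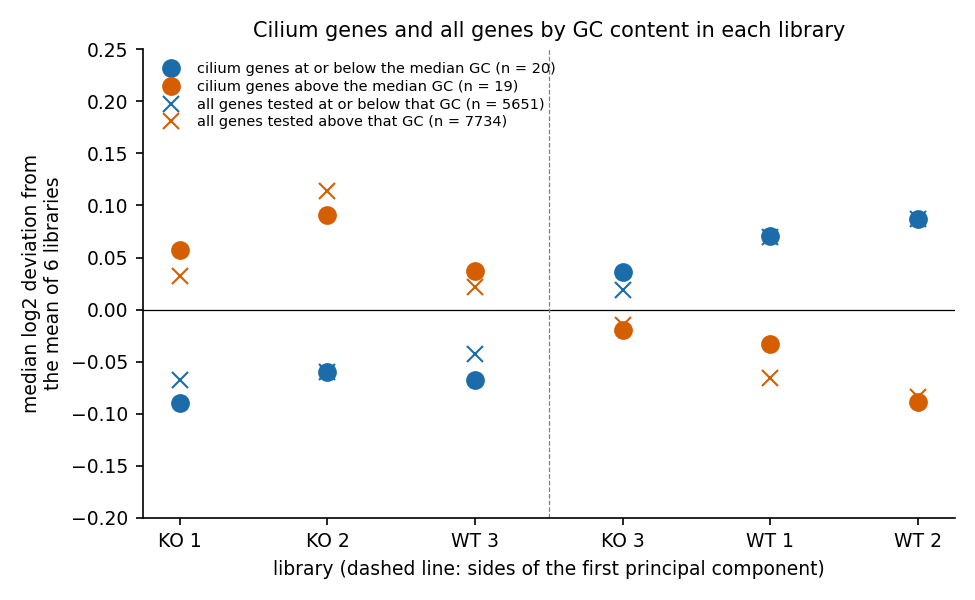
Median log2 deviation of each library from the mean of 6 libraries, for cilium genes (circles) and all genes tested (crosses) at or below (blue) and above (orange) a GC content of 47.9%. In KO 1, KO 2 and WT 3 the AT-richer cilium genes are low (-0.089, -0.060 and -0.067), and in KO 3, WT 1 and WT 2 they are high (0.036, 0.071 and 0.087).

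After GC correction, the KO libraries were all under the WT libraries in 6 genes (15.4%, against 9.65% of all genes) and all over them in 1, Ift80 (2.56%, against 4.65%). The 6 were Ift57, Ift74, Ift81, Ttc8, Tmem67 and Tmem231, of which Ift57, Ift81 and Tmem67 had also been apart before. The genes of the IFT-B dimer then had log2 changes of -0.12 (Ift81) and -0.082 (Ift74), and 0 of the 39 passed limma at an adjusted p of 0.05, with 2, Tmem67 and Tmem231, at an unadjusted p under 0.05 (8.6% of all genes). Within the 2 sides of the first component, 14 of the 39 (35.9%) were lower in KO on both sides and 17 (43.6%) higher on both, against 27.4% and 39.4% of all genes tested. Ift57, Ift74, Ift81, Arl6, Ttc8, Tmem67, Tmem231 and Rpgrip1l were among the 14. For Ift57, Ift81, Arl6, Tmem67 and Rpgrip1l this was fixed in advance, since all their KO values as deposited were below all WT values. For them the split adds no evidence.

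Other cilium genes, listed from general knowledge, were read from the same fit. Of 70 listed, 67 were found and 49 tested, and 0 passed limma over all genes, with 7 at an unadjusted p under 0.05 (4 lower and 3 higher in KO), when 10.3% of all genes tested were. In this list, too, 24 averaged more and 25 less in KO. All KO values were below all WT values in 5 of the 49 (8.77% of all genes tested were), and above them in 4 (7.67% of all genes). The 5 were Ttc30a1, Ttc30a2, Ttc30b, Mkks and Tmem237, and the 4 were Nek8, Gpr161, Cep164 and Fbf1. The largest difference in this list was in another gene of the outward train. Ttc30b, which encodes a form of the IFT-B subunit IFT70, was 7.84, 7.10 and 9.60 in KO and 9.86, 11.0 and 11.2 in WT, with all KO values lower, a log2 change of -0.35 (SE 0.11) and a limma adjusted p of 0.469. Its paralogs Ttc30a1 and Ttc30a2 were also lower in all KO libraries, at 9.79 ± 0.417 against 11.3 ± 0.255 and 6.73 ± 0.387 against 7.86 ± 0.331 (SD, n = 3 each). The 3 are similar copies between which reads may be divided or lost, so their separate values are uncertain. Ttc30b and Ttc30a2 stayed apart after GC correction, at -0.32 and -0.19. Mkks, a chaperonin relative of the BBSome pathway, was 12.7, 13.4 and 13.7 in KO and 16.5, 15.7 and 14.8 in WT, again with all KO values lower and a log2 change of -0.22 (SE 0.072, limma adjusted p 0.469), though 29.3% of its exonic bases are shared with another gene model on the same strand. Bbip1, a small BBSome subunit, had a log2 change of -0.15.

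All 8 genes of the ciliary membrane and its cargo averaged more in KO (median log2 change 0.13, and 0.052 after GC correction, when 1 of 8 was lower). Their median GC content was 50.9%, and of all genes tested above 47.9% GC only 26.1% averaged less in KO. Arl3, Tulp3 and Rab23 lay below 47.9%, where 74.3% of all genes averaged less. Gpr161, a ciliary receptor that restrains Hedgehog signalling, was 3.76, 3.97 and 3.81 in KO and 2.54, 3.52 and 3.14 in WT, with all KO values higher, a log2 change of 0.26 and a limma adjusted p of 0.469. It stayed apart after GC correction, at 0.23. Adcy3, the adenylyl cyclase of cilia, had a log2 change of 0.21 that was 0.028 after the correction. Exons of Cenpo on the opposite strand cover 22.1% of its exonic bases, so reads of Cenpo may be part of its value. Nek8, a kinase of the inversin compartment, averaged 1.72 ± 0.131 in the KO against 1.33 ± 0.123 in the WT libraries (SD, n = 3 each). It had a log2 change of 0.22, and of 0.039 after GC correction. Fbf1 and Cep164, of the appendages that dock the centriole, had log2 changes of 0.28 and 0.19, all KO values higher, and of 0.071 and -0.022 after it. Invs had one of 0.049. Among other transition-zone genes, Tmem17 and Tmem237 had the lowest p, with log2 changes of -0.15 and -0.10, and 7 of the 10 averaged less in KO. Of the X-box factors, Rfx3 was 4.52, 5.40 and 5.09 in KO and 5.62, 7.07 and 5.13 in WT, where KO 2 exceeded WT 3, and its log2 change was -0.20 (limma adjusted p 0.491). Rfx1 was higher in KO by 0.11 log2 units and lower after GC correction (-0.15).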

How the data were processed

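RNA from dorsal pancreata was made into TruSeq v2 libraries, a kit without strand information, per the labels' protocols. CASAVA 1.82, Bowtie 0.12.7 and build mm9 come from the submitters' processing notes; how reads were counted and normalized is not given in the sources used here. As deposited by the authors, the files hold 1 signal value per gene and library, never negative, with library sums between 674295 and 716255 that are no read totals. Symbols were found for 22624 of 24389 identifiers (92.8%) in tables of build GRCm38, which were used only for names, GC content, exon overlap and promoter sequence. Genes averaging at least 1 (13911) entered limma 3.58.1 (R 4.3.3) as log2(value + 1), with a mean-variance trend and the group as sole term, two-sided, with Benjamini-Hochberg adjustment over all genes and a threshold of 0.05. GC correction subtracted a loess curve (span 0.3) of each library's log2 deviation on the GC content of the longest transcript (13385 genes, 96.2%). On simulated data for KO against WT over 13911 genes with 200 changed, limma recovered 66.7% of changes of 0.5 log2 units, 97.2% of 1 unit and 100% of 2 units, with 5 false calls. The noise was drawn independently for each gene, without the differences that many genes of a library share here. The recovery in the real libraries may therefore differ and was not tested. The 42 genes and all lists were chosen with earlier results of these data known. By rule, values in every library are given for genes with groups that do not overlap, the 2 with the lowest p and the 1 with the lowest mean of each subgroup, and those under the filter; the other genes shown were added after their values were seen. Of each further cilium list, the 2 genes with the lowest p are named, and Ttc30a2 was added as a paralog. Alternatives were other scalings, filters and a pseudocount of 0.1, the replicate number as a block, GC correction, a term for the side of the first component, and leaving out each library. Differences within each side were added after seeing the data.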

Additional observations from a re-analysis of the deposited data

How the results depend on the processing

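No cilium gene, listed first or among the others, passed limma over all genes in any of the 16 alternatives; the lowest adjusted p of a listed gene was 0.135 (B9d2, without WT 3). The number of the 42 genes with an unadjusted p under 0.05, 1 as reported, was 2 with no filter, 2 after GC correction, 0 with the replicate block, 0 with GC correction and the block, and 0 to 4 when a library was left out (4 without WT 3: B9d2, Tctn1, Ift22 and Ift74, not Ift81). The count of genes apart upward, 0 as reported, was 2 with equal totals, 1 after GC correction and 0 to 10 without 1 library, and that apart downward, 5, was 5 to 10 without 1 library; the shares of all genes apart were then 9.38% to 23.8% upward and 9.5% to 20.9% downward. The median log2 change of the genes tested ranged from -0.039 to 0.023 without 1 library, beyond the SD between libraries (0.028) without KO 3 and without WT 3, and was 0.0036 and 0.0088 within the sides. Subgroup medians turned sign after GC correction in IFT-B (0.011), IFT-A (-0.0094) and the pair of Arl13b and Ofd1 (0.056), and that of the motors ran from -0.013 to 0.10, that of the transition zone from -0.053 to 0.030 and that of the pair from -0.075 to 0.028 without 1 library. Over all genes, 2 passed the threshold; 1 did with no filter, 4 after GC correction, 0 with the replicate block (656 at an unadjusted p under 0.05), 1 with GC correction and the block, and 1 to 7 without 1 library. Across genes, deviations of same-numbered KO and WT libraries from their group means correlated at -0.216, -0.398 and -0.638. Libraries of the same number lay on opposite sides of the first component, so these values cannot show whether such samples were collected or processed together. The palindromic motif gave 3 genes in place of the 6 with an X-box, and 1 gene, Tctn1, held both. Of 448 log2 changes of 28 named genes under the alternatives, 424 kept their sign, and none passed. The 28 were picked in these same data. They are the genes of the 42 with groups that do not overlap or the 2 lowest p of their subgroup, and the 2 with the lowest p of each other list tested. Kept signs are more likely in such a choice, so the count does not describe the other genes. Among these 28, signs turned after GC correction, with and without the block, in Ift122 (-0.0094), Arl13b (0.057), Ofd1 (0.055), Cep164 (-0.022) and Rfx1 (-0.15). With the side as a term, signs turned in Arl13b (0.059) and Ofd1 (0.038). Of the 42 genes, Ift43 (-0.11), Mks1 (-0.064), Kif3b (-0.0037), Ift80 (0.066), Ift88 (0.021) and Bbs12 (0.048), not among the 28, also turned sign after GC correction. Without 1 library the log2 change ranged from -0.092 to 0.034 in Arl13b, from -0.058 to 0.023 in Ofd1, from -0.00022 to 0.11 in Kif3a, from -0.039 to 0.13 in Kifap3 and from -0.015 to 0.085 in Invs. The cause of these changes was not tested. Groups of 3 libraries and an unknown depth limit what could be seen.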
